A study of Mus musculus with 12 samples.

Results

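A set of 10 products and feedback regulators of NF-kB signalling was followed in blood stem and progenitor cells that lack Mll5. They comprise the chemokines Ccl3, Ccl4 and Cxcl2, the cytokines Tnf and Il1b, the IkB family members Nfkbia, Nfkbiz and Bcl3, the ubiquitin-editing enzyme Tnfaip3 and the NF-kB subunit Relb. They were chosen by their measured log2 signals, which as a group were lower on Mll5-/- arrays than on wild-type (WT) arrays. Their genotype differences are therefore given as a description with no test, and only the effect of N-acetyl-L-cysteine (NAC) and its interaction with genotype were tested. All 10 were measured, each by 1 probe set that carries a single gene symbol, and they are 10 of the 22180 genes measured in this way. Of the 10, 9 had a mean signal above the median gene level of 3.17 on the log2 scale, and Il1b, at a mean of 2.49, lay below it.

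The cells were LSK cells (Lin-Sca1+Kit+, the bone marrow fraction that holds blood stem cells and multipotent progenitors), sorted by flow cytometry from C57BL/6 mice and not cultured. Mll5, also called Kmt2e, encodes a protein related to the MLL family of chromatin regulators. The 4 groups of 3 arrays were Mll5-/- with NAC, WT with NAC, Mll5-/- without NAC (mock) and WT without NAC (mock). NAC, an antioxidant that supplies cysteine, was given in the drinking water at 1 g per liter from the mating of Mll5+/- parents onward, through pregnancy and the life of the offspring used, so exposure covers development as well as adult life. Total RNA from each sample was hybridised to 1 Affymetrix array. The labels give neither the age of the mice nor the deleted part of the gene, and they do not say whether an array is 1 mouse or a pool. P-values therefore rest on the spread among these arrays alone, and that spread may be technical.

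NF-kB is a family of transcription factors held in the cytoplasm by IkB proteins. Signals from the TNF and IL-1 receptors and the Toll-like receptors activate the IKK kinase complex, which marks Nfkbia (IkB-alpha) for destruction and lets NF-kB enter the nucleus. There it switches on chemokines and cytokines together with its own brakes: newly made Nfkbia returns NF-kB to the cytoplasm, and Tnfaip3 (A20) edits the ubiquitin chains that carry the signal. Blood stem and progenitor cells carry receptors for several of these cytokines and can respond to inflammatory signals directly.

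Promoters were read because NF-kB binds a short DNA element, the kappaB site. RefSeq promoter sequences (GRCm38.p6, 250 bases before to 50 bases after the start site) were matched for 7 of the 10 genes, with none matched for Ccl4, Nfkbiz and Relb. The kappaB consensus, 10 letters searched on both strands, was present in 4 of these 7 genes (Cxcl2, Nfkbia, Tnfaip3 and Bcl3) and in 8.46% of all 32841 promoters, or 9.55% of 27018 genes. The looser pattern GGGNNNNNCC, which every consensus match also fits, was present in 5 of the 7 genes. It was present in 50.8% of all promoters, or 53.5% of genes. The 4 promoters with a match are printed, and the Ccl3 promoter is printed as a gene of the set with no match in this window. Capitals mark the consensus matches. The Cxcl2 window is chr5:90903649-90903948 on the plus strand, and the other windows are on the minus strand: Nfkbia at chr12:55492598-55492897, Tnfaip3 at chr10:19015361-19015660 (the upstream of 2 windows listed for this gene), Bcl3 at chr7:19822706-19823005 and Ccl3 at chr11:83649329-83649628.
Cxcl2: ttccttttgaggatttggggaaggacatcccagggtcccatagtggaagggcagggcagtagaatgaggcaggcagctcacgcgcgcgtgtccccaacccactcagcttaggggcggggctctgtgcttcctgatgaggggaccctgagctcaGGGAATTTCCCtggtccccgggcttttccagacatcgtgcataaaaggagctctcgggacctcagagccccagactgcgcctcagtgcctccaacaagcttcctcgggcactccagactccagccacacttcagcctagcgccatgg
Nfkbia: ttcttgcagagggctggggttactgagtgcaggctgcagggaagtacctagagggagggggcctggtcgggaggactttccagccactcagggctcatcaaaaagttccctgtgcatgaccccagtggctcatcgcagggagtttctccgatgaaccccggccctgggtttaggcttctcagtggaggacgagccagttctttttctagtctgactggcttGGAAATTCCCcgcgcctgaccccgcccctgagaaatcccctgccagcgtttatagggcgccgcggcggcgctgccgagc
Tnfaip3: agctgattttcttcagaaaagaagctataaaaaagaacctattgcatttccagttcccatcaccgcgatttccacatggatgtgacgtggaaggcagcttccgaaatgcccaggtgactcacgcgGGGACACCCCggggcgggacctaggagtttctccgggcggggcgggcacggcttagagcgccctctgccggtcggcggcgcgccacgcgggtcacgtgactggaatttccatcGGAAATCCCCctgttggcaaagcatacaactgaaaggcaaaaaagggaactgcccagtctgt
Bcl3: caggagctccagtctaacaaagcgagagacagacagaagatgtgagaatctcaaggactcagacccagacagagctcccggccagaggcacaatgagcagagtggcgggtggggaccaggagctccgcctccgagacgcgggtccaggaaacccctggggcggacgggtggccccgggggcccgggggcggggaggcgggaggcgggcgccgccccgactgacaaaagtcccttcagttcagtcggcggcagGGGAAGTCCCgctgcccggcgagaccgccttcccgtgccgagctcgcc
Ccl3: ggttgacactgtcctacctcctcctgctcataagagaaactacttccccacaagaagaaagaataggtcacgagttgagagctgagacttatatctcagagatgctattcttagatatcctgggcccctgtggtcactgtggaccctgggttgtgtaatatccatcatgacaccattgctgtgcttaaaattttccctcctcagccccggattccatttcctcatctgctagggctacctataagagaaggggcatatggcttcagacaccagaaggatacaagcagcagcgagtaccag
The matches begin at -97 and -96 from the start site in Cxcl2 (overlapping, on opposite strands), at -29 in Nfkbia, at -125 and -12 in Tnfaip3, and at 3 in Bcl3, just inside the transcript. The -125 match of Tnfaip3 and the match of Bcl3 read as the consensus on both strands. The other window listed for Tnfaip3 had 0 consensus matches. A match is a description of letters, and binding was not measured.

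The 12 arrays were alike in overall level, with array medians between 2.89 and 2.96 and correlations between arrays from 0.976 to 0.988. The targeted gene, Kmt2e, averaged 7.12 ± 0.18 in Mll5-/- NAC cells and 7.55 ± 0.21 in WT NAC cells, and 7.27 ± 0.30 in Mll5-/- mock cells and 7.52 ± 0.15 in WT mock cells (log2 signal, SD, n = 3). Its arrays did not overlap between genotypes with NAC and overlapped without it. The position of its probes relative to the deletion is not known, so this does not check the genotype labels. Of 14 LSK markers, 12 were measured, and none of the 12 lay at or below the median gene level. By contrast, 7 of 8 measured T and NK cell markers and 7 of 11 neutrophil markers did. Of other lists, 0 of 6 measured megakaryocyte, 1 of 5 erythroid and 2 of 12 monocyte and macrophage markers lay there. So did 2 of 7 dendritic cell, 3 of 7 B cell and 3 of 8 mast cell and basophil markers. This measure therefore does not set the LSK list apart from the megakaryocyte list.

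Values below are log2 signals for arrays 1, 2 and 3 of a group, which carry no order, and a difference of 1 is a doubling. Differences and their standard errors come from a limma fit to all 22180 genes in which the 4 groups share an estimate of the spread. In bulk RNA, fewer cells that express a gene and less RNA per cell cannot be told apart.

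**Figure D1:**
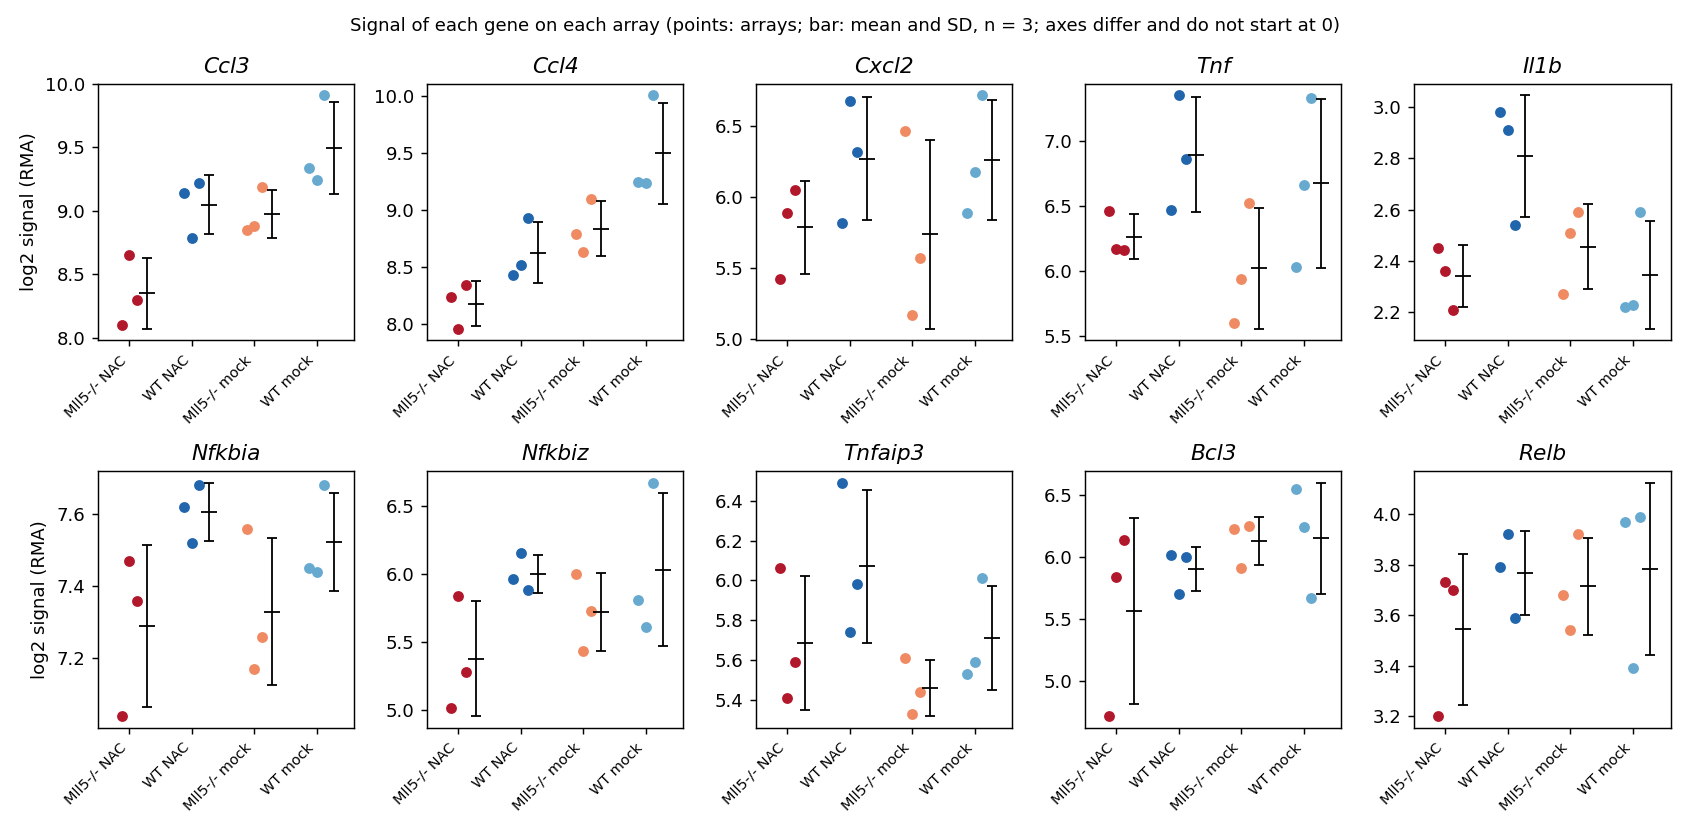
Log2 signal of each of the 10 genes on every array, in a panel per gene with its own vertical range. Points are single arrays and bars are group means and SD. Each of the groups Mll5-/- NAC, WT NAC, Mll5-/- mock and WT mock has 3 arrays. Ccl3 and Ccl4 are the 2 genes whose arrays separated by genotype in both treatments.

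The chemokines Ccl3 and Ccl4 (MIP-1 alpha and beta) attract monocytes, T cells and NK cells, and Ccl3 is also known as an inhibitor of stem cell proliferation. Ccl3 signals were 8.10, 8.65 and 8.30 in Mll5-/- NAC cells, against 9.14, 8.79 and 9.22 in WT NAC cells. Without NAC they were 8.85, 8.88 and 9.19 in Mll5-/- cells and 9.34, 9.24 and 9.91 in WT cells. In both treatments every Mll5-/- array lay below every WT array. The genotype difference, Mll5-/- minus WT, was -0.70 with NAC and -0.52 in mock (SE 0.20 each), and the mock value was -0.32 without WT mock array 3.

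Ccl4 gave 8.24, 7.96 and 8.34 in Mll5-/- NAC cells, against 8.43, 8.52 and 8.93 in WT NAC cells. In mock cells its signals were 8.79, 8.63 and 9.10 in Mll5-/- cells and 9.25, 9.24 and 10.01 in WT cells. Here too the genotypes did not overlap within either treatment, and the highest of the 12 arrays was WT mock array 3. The difference was -0.45 with NAC and -0.66 in mock (SE 0.22 each). It was -0.29 with NAC without WT NAC array 3, and -0.41 in mock without WT mock array 3. The 2 genes lie next to each other on chromosome 11 with 0 coding genes between them. Across the 2 treatments, Mll5-/- cells thus differed from WT by -0.61 for Ccl3 (SE 0.14) and -0.55 for Ccl4 (SE 0.15).

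Cxcl2 (MIP-2) draws neutrophils through the receptor Cxcr2. Its signals were 5.42, 5.89 and 6.05 in Mll5-/- NAC cells, against 5.82, 6.68 and 6.32 in WT NAC cells. Mock arrays gave 6.47, 5.17 and 5.57 in Mll5-/- cells and 5.89, 6.18 and 6.72 in WT cells. The genotypes overlapped in both treatments, and Mll5-/- mock array 1 lay among the WT arrays. The difference was -0.49 with NAC and -0.53 in mock (SE 0.32 each), and single arrays moved both. In mock it was -0.89 without that array, -0.24 without Mll5-/- array 2 and -0.30 without WT array 3, and with NAC it was -0.30 without Mll5-/- array 1 and -0.28 without WT array 2.

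Tnf, a cytokine that both activates NF-kB and is induced by it, gave 6.46, 6.17 and 6.16 in Mll5-/- NAC cells, against 6.47, 7.35 and 6.86 in WT NAC cells. In mock it gave 5.60, 5.94 and 6.52 in Mll5-/- cells and 6.03, 6.66 and 7.33 in WT cells. With NAC the genotypes did not overlap, although the highest Mll5-/- array almost reached the lowest WT array, and without NAC they overlapped. The difference was -0.63 with NAC and -0.65 in mock (SE 0.31 each). It was -0.40 with NAC without WT NAC array 2, and in mock it ran from -0.98 without WT mock array 1 to -0.33 without WT mock array 3.

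Il1b encodes interleukin-1 beta, a cytokine that reaches stem cells through Il1r1 and is made as a precursor mainly by myeloid cells. Its probe set was dim, at 2.45, 2.36 and 2.21 in Mll5-/- NAC cells, against 2.98, 2.91 and 2.54 in WT NAC cells. In mock it was 2.27, 2.51 and 2.59 in Mll5-/- cells and 2.22, 2.23 and 2.59 in WT cells. The genotypes separated with NAC (-0.47, SE 0.16) and overlapped in mock, where the difference was 0.11 (SE 0.16, and 0.04 to 0.23 with 1 array left out at a time). It was the 1 member whose mean was not lower in Mll5-/- mock cells, and its signal lay at the 32.9th percentile of genes.

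**Figure D2:**
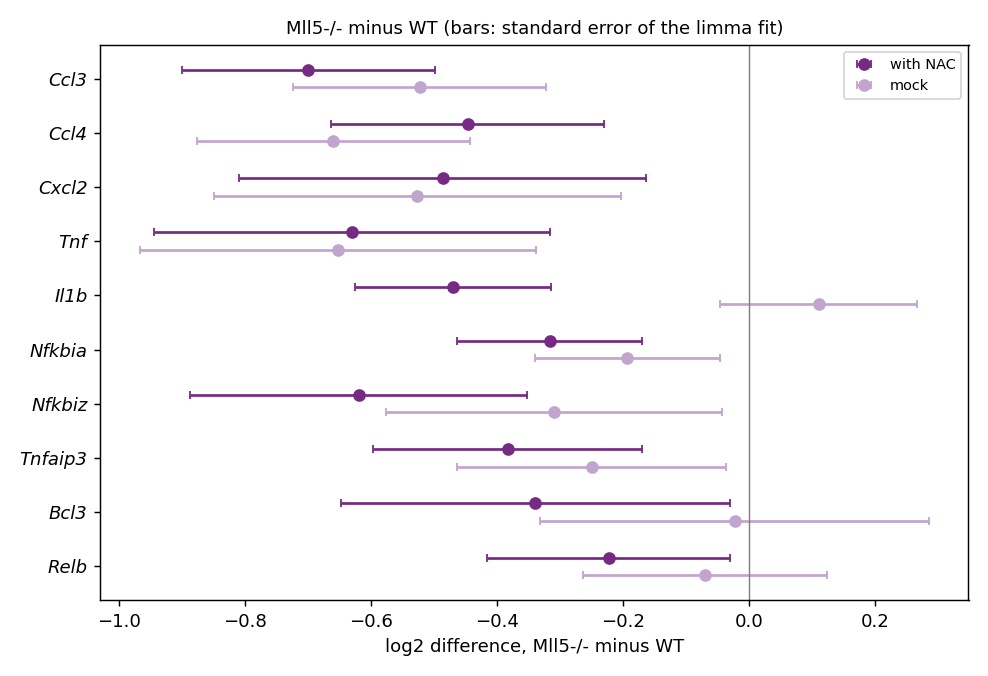
Difference in log2 signal, Mll5-/- minus WT, for each of the 10 genes, with and without NAC; bars are the standard error of the limma fit over 3 arrays per group. The differences run from -0.70 to -0.22 with NAC and from -0.66 to 0.11 in mock.

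Nfkbia, the inhibitor that holds NF-kB in the cytoplasm, had the narrowest spread of the 3 IkB genes of the set. It gave 7.04, 7.47 and 7.36 in Mll5-/- NAC cells, against 7.62, 7.52 and 7.68 in WT NAC cells. In mock it gave 7.56, 7.17 and 7.26 in Mll5-/- cells and 7.45, 7.44 and 7.68 in WT cells. The genotypes were apart with NAC (-0.32) and overlapped in mock (-0.19, SE 0.15 each). The value with NAC was -0.19 without Mll5-/- NAC array 1, and in mock it ran from -0.31 without Mll5-/- array 1 to -0.11 without Mll5-/- array 2, with -0.12 without WT array 3.

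Nfkbiz (IkB-zeta) is a nuclear IkB protein that helps switch on secondary inflammatory genes. Its signals were 5.01, 5.84 and 5.28 in Mll5-/- NAC cells, against 5.96, 6.15 and 5.88 in WT NAC cells, and Mll5-/- mock cells gave 6.00, 5.43 and 5.73 against 5.81, 5.61 and 6.67 in WT mock cells. The genotypes narrowly failed to overlap with NAC and overlapped in mock. Their difference was -0.62 with NAC and -0.31 in mock (SE 0.27 each). The mock value rested on WT mock array 3, without which it was 0.01, and it was -0.52 without WT mock array 2 and -0.17 without Mll5-/- mock array 2.

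Bcl3, a nuclear IkB protein that binds p50 and p52 dimers, gave 4.72, 5.84 and 6.14 in Mll5-/- NAC cells, against 6.02, 5.70 and 6.00 in WT NAC cells. In mock it gave 6.23, 5.91 and 6.25 in Mll5-/- cells and 6.55, 6.24 and 5.67 in WT cells. The genotypes overlapped in both treatments, and Mll5-/- NAC array 1 stood far below the other 11. The difference was -0.34 with NAC and -0.02 in mock (SE 0.31 each), and the value with NAC became 0.08 without that array and -0.63 without Mll5-/- NAC array 3. With 1 array left out at a time the mock value ran from -0.27 to 0.17, so it had no settled sign.

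Tnfaip3, the A20 brake on NF-kB, gave 6.06, 5.41 and 5.59 in Mll5-/- NAC cells, against 6.49, 5.74 and 5.98 in WT NAC cells. In mock it gave 5.61, 5.33 and 5.44 in Mll5-/- cells and 5.53, 5.59 and 6.01 in WT cells. The genotypes overlapped in both treatments, with a difference of -0.38 with NAC and -0.25 in mock (SE 0.21 each). It was -0.17 with NAC without WT NAC array 1 and -0.24 without Mll5-/- NAC array 2, and -0.10 in mock without WT mock array 3.

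Relb, the subunit of the alternative NF-kB pathway, had the smallest difference of the 10 genes over both treatments (-0.15, SE 0.14). It gave 3.20, 3.73 and 3.70 in Mll5-/- NAC cells, against 3.79, 3.92 and 3.59 in WT NAC cells, and 3.68, 3.54 and 3.92 in Mll5-/- mock cells, against 3.97, 3.39 and 3.99 in WT mock cells. The genotypes overlapped in both treatments, and the differences were -0.22 with NAC and -0.07 in mock (SE 0.19 each). With 1 array left out at a time they ran from -0.32 to -0.05 with NAC and from -0.27 to 0.03 in mock. Relb and Bcl3 lie on chromosome 7 with 10 coding genes between them.

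Counted over the set, 10 of 10 genes were lower in Mll5-/- cells with NAC and 9 of 10 in mock, with median differences of -0.46 and -0.28. Over all 22180 genes the medians were 0.01 and 0.00. Arrays did not overlap, with Mll5-/- lower, for 6 of 10 genes with NAC (Ccl3, Ccl4, Tnf, Il1b, Nfkbia and Nfkbiz), where 6.05% of all genes did so. In mock this held for 2 of 10 (Ccl3 and Ccl4), where 5.46% of all genes did so. With both treatments pooled, no gene of the set had all 6 Mll5-/- arrays below all 6 WT arrays, against 0.234% of all genes. These counts describe the choice of the genes. In mock, the median was -0.18 without Mll5-/- array 2 and -0.19 without WT array 3, with 7 of 10 genes lower in each case.

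The effect of NAC was not the ground on which the genes were chosen, although earlier results of these arrays were known at that time. Under limma with Benjamini-Hochberg adjustment over all genes, 0 of the 10 genes passed an adjusted p of 0.05 for NAC against mock in Mll5-/- cells, where 0.00451% of all genes passed. In WT cells 0 of 10 passed, where 0.00902% of all genes did, and over both genotypes 0 of 10, where 0.00451% did. At an unadjusted p under 0.05 the counts were 2 of 10 in Mll5-/- cells (all genes, 5.86%), 3 of 10 in WT cells (5.92%) and 2 of 10 over both genotypes (7.43%).

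The chemokine pair had the largest NAC differences of the 10 genes over both genotypes. Ccl3 averaged 8.35 ± 0.28 in Mll5-/- NAC cells and 8.97 ± 0.19 in Mll5-/- mock cells (SD, n = 3 each), and it averaged 9.05 ± 0.23 in WT NAC cells and 9.50 ± 0.36 in WT mock cells. Ccl4 averaged 8.18 ± 0.20 in Mll5-/- NAC cells and 8.84 ± 0.24 in Mll5-/- mock cells, against a WT NAC mean of 8.63 ± 0.27 and a WT mock mean of 9.50 ± 0.44. For both genes, every NAC array lay below every mock array of the same genotype. No other gene of the set did so, which makes 2 of 10 in Mll5-/- cells, where 5.14% of all genes had non-overlapping lower NAC arrays, and 2 of 10 in WT cells, where 5.32% did. Pooled over genotypes, 0 of 10 were free of overlap, against 0.203% of all genes.

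For Ccl4 the difference, NAC minus mock, was -0.66 in Mll5-/- cells (SE 0.22, limma adjusted p = 0.771) and -0.87 in WT cells (SE 0.22, limma adjusted p = 0.500). Over both genotypes it was -0.77, a 1.70-fold lower signal, with a 95% interval from -1.10 to -0.44 and a limma adjusted p of 0.198. Ccl3 differed by -0.62 in Mll5-/- cells (SE 0.20, limma adjusted p = 0.753) and by -0.45 in WT cells (SE 0.20, limma adjusted p = 0.843). Over both genotypes its difference was -0.54, 1.45-fold, with an interval from -0.84 to -0.23 and a limma adjusted p of 0.393. Neither gene passed after adjustment over all genes, although the unadjusted limma p over both genotypes was 0.00025 for Ccl4 and 0.0024 for Ccl3. Without WT mock array 3, the NAC difference in WT cells was -0.24 for Ccl3 and -0.62 for Ccl4, and 7 of the 10 genes were then higher with NAC. In this comparison the mock arrays also serve the genotype comparison above, so the 2 sets of differences share arrays.

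**Figure D3:**
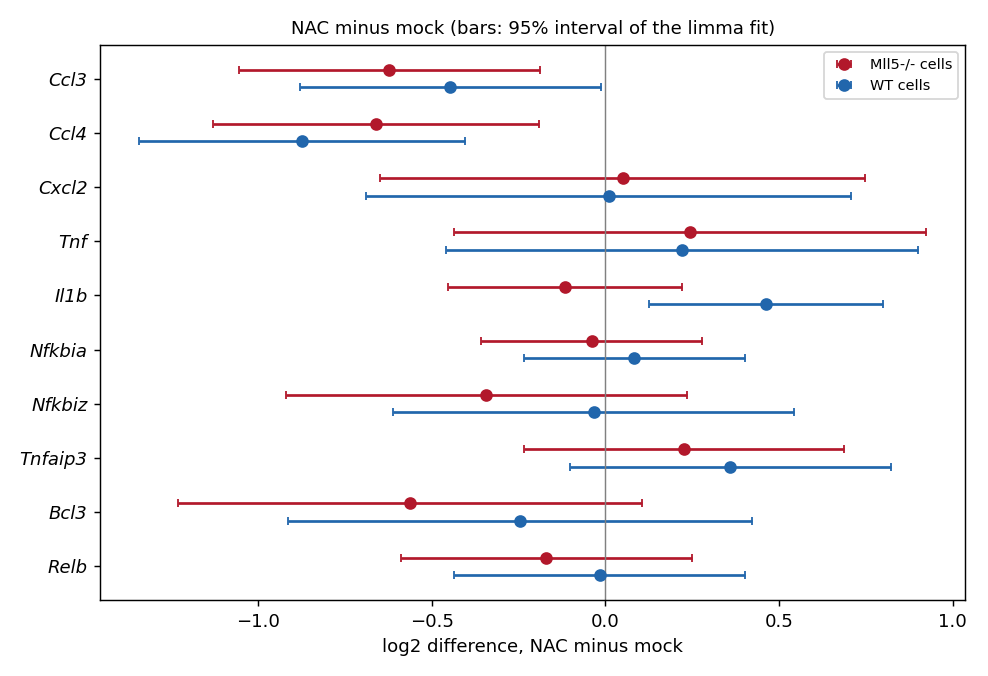
Difference in log2 signal, NAC minus mock, for each of the 10 genes in Mll5-/- cells and in WT cells, with the 95% interval of the limma fit. The intervals of Ccl3 and Ccl4 lie below 0 in both genotypes and that of Il1b lies above 0 in WT cells, while no gene passed adjustment over all genes.

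The other 8 genes were mixed in sign. Il1b gave an NAC difference of -0.12 in Mll5-/- cells (SE 0.16) and 0.46 in WT cells (SE 0.16, limma adjusted p = 0.718). Nfkbiz differed by -0.34 in Mll5-/- cells and -0.03 in WT cells (SE 0.27 each). Bcl3 differed by -0.56 in Mll5-/- cells (SE 0.31, limma adjusted p = 0.893), a value that was -0.14 without Mll5-/- NAC array 1. Tnfaip3 differed by 0.23 in Mll5-/- cells and 0.36 in WT cells (SE 0.21 each), and Tnf by 0.24 in Mll5-/- cells and 0.22 in WT cells (SE 0.31 each). With 1 array left out at a time, the Tnf value ran from 0.03 to 0.49 in Mll5-/- cells and from -0.10 to 0.55 in WT cells, and the Tnfaip3 value in WT cells from 0.15 to 0.53. Cxcl2, Nfkbia and Relb had differences within 0.17 of 0 in both genotypes, and their 95% intervals spanned 0. The set's median NAC difference was -0.14 in Mll5-/- cells and 0.00 in WT cells, with 7 and 5 of 10 genes lower with NAC, beside medians of 0.00 over all genes in each genotype.

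The interaction, the genotype difference with NAC minus that in mock, asks whether NAC changed the gap between genotypes. It passed for 0 of 10 genes, and for 0% of all genes, after adjustment in limma, and 1 of 10 had an unadjusted p under 0.05 (all genes, 4.21%). That gene was Il1b, at -0.58 (SE 0.22, limma adjusted p = 0.999). For Ccl3 the interaction was -0.18 with a 95% interval from -0.79 to 0.44, and for Ccl4 it was 0.21 with an interval from -0.45 to 0.88. With 3 arrays per group these intervals are wide, and any change in the gap inside them is compatible with these arrays.

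**Figure D4:**
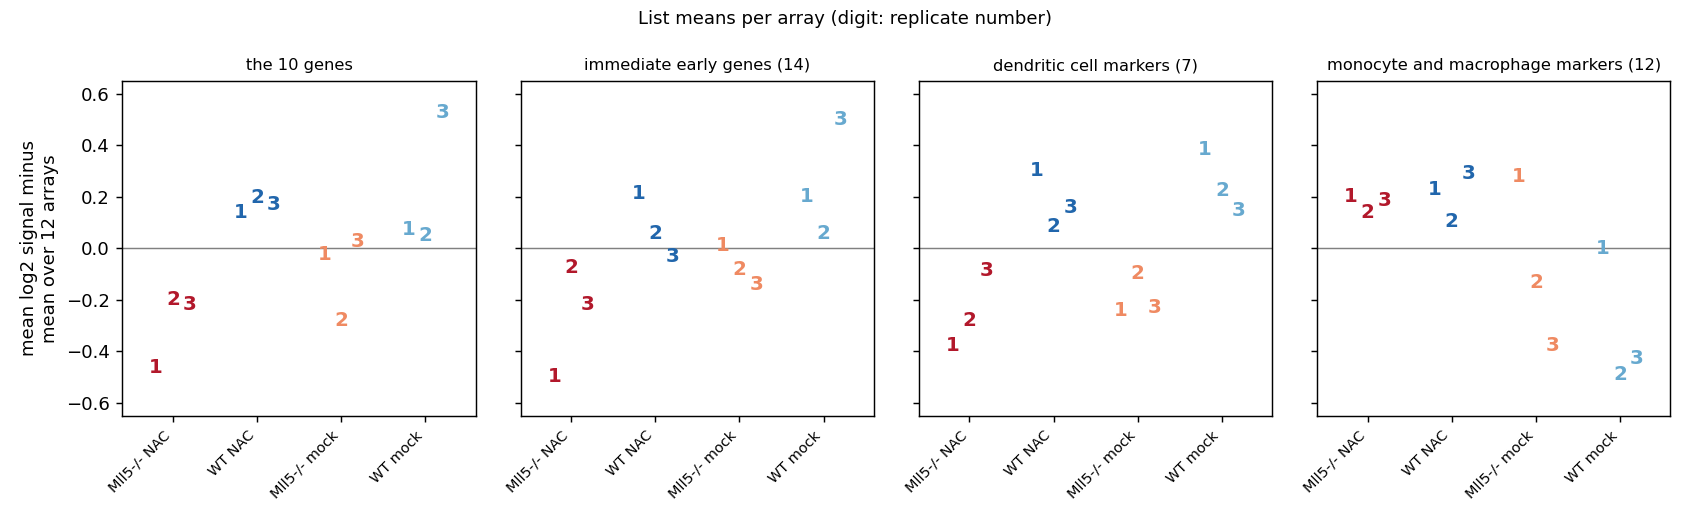
Mean log2 signal of gene lists on each array, minus the mean over 12 arrays, for the 10 genes and for marker lists; each digit is 1 array and gives its replicate number, in the order Mll5-/- NAC, WT NAC, Mll5-/- mock, WT mock. The 10 genes run from -0.46 to 0.03 on Mll5-/- arrays and from 0.05 to 0.53 on WT arrays, and the immediate early genes from -0.50 to 0.01 and from -0.03 to 0.50.

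Averaged over the 10 genes and set against the mean of all 12 arrays, Mll5-/- arrays ran from -0.46 to 0.03 and WT arrays from 0.05 to 0.53, an order that the choice of genes favours. The lowest array was Mll5-/- NAC array 1 and the highest WT mock array 3. Of 45 pairs, 35 had a positive correlation of their deviations from the group means over 12 arrays. The median r was 0.28 and the range from -0.55 to 0.77. The share among pairs of other genes was not measured. The closest pair was Nfkbia and Nfkbiz (r = 0.77, and 0.74 without the 2 farthest arrays). Leaving out 2 arrays in this way lowered some pairs, such as Ccl3 and Nfkbiz from 0.68 to 0.26. It raised others, such as Cxcl2 and Tnf from 0.26 to 0.61. All 45 pairs share the same 12 libraries.

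Among 10223 other genes at or above the median level, those whose deviations were most like the mean of the set over 12 arrays were Gpr137b-ps (r = 0.96), Il7r (r = 0.94), Rbmx (r = 0.94), Apeh (r = 0.93) and Cyld (r = 0.92). Without the 2 farthest arrays these became 0.91, 0.85, 0.92, 0.93 and 0.80. For single genes, the likest were Tinf2 for Ccl3 (r = 0.97), Bbc3 for Ccl4 (r = 0.94), Nkiras1 for Cxcl2 (r = 0.99), Hnrnpa0 for Tnf (r = 0.98) and Fzd6 for Il1b (r = 0.94). They were Trim12a for Nfkbia (r = 0.97), Nt5dc3 for Nfkbiz (r = 0.98), Exoc3 for Tnfaip3 (r = 0.94), Mrpl10 for Bcl3 (r = 0.96) and Glis2 for Relb (r = 0.95). Each is the highest of 10223 correlations over the same 12 arrays and is a description, with no p.

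Marker lists were measured beside the set. The immediate early genes, which include Fos, Egr1 and Nr4a1 and respond within minutes to growth factors and to handling of cells, were lower in Mll5-/- cells for 13 of 14 genes over both treatments, with a median of -0.26. Their arrays ran from -0.50 to 0.01 in Mll5-/- cells and from -0.03 to 0.50 in WT cells, and the same 2 arrays lay at the ends. Those 2 arrays, Mll5-/- NAC array 1 and WT mock array 3, were also the ends of the LSK list, at -0.37 and 0.34. Of 8 dendritic cell markers 7 were measured, 6 of these were lower (median -0.30), and their mean per array ran from -0.38 to -0.09 in Mll5-/- cells and from 0.09 to 0.38 in WT cells. H2-Aa gave -1.07 and Flt3, which is also an LSK marker, -0.74, while the dendritic markers Itgax and Xcr1 lay at or below the median gene level.

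Other lists were set against genotype over both treatments in the same way. Of 12 monocyte and macrophage markers 5 were lower in Mll5-/- cells (median 0.03). Their mean per array ran from -0.38 to 0.28 in Mll5-/- cells and from -0.49 to 0.29 in WT cells. The number lower was 7 of 12 measured LSK (median -0.05) and 4 of 8 mast cell and basophil markers (median 0.01). It was 4 of 8 measured T and NK cell (median -0.04) and 0 of 5 measured erythroid markers (median 0.14). Over all genes 49.2% were lower. All 6 measured megakaryocyte markers of 8 were higher in Mll5-/- cells (median 0.52), with Selp at 1.48 and Pf4 at 0.86, and their mean per array ran from -0.08 to 0.58 in Mll5-/- cells and from -0.46 to -0.15 in WT cells. All 7 measured B cell markers of 8 were lower (median -0.11), with Blnk at -0.77, and Ms4a1, Vpreb1 and Ebf1 lay at or below the median gene level. The B cell mean per array overlapped between genotypes, from -0.37 to 0.10 in Mll5-/- cells and from -0.01 to 0.31 in WT cells. Of 11 neutrophil markers 8 were lower (median -0.08), among them S100a8 at -1.05 and S100a9 at -1.19, and 3 were higher, among them Cxcr2 at 0.65. Of the 11, 7 lay at or below the median gene level. The neutrophil mean per array also overlapped between genotypes, from -0.42 to 0.16 in Mll5-/- cells and from -0.11 to 0.24 in WT cells.

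With NAC against mock, 10 of 12 monocyte and macrophage markers were higher over both genotypes (median 0.49). Of 12 measured LSK markers 11 were lower (median -0.27). Of 14 immediate early genes 11 were lower (median -0.19) and 3 higher. Of measured markers, 5 of 11 neutrophil, 5 of 7 dendritic cell and 3 of 7 B cell markers were lower. So were 5 of 8 T and NK cell and 3 of 6 megakaryocyte markers. Over all genes 50.3% were lower. The monocyte list ran from 0.10 to 0.29 on NAC arrays and from -0.49 to 0.28 on mock arrays, with Adgre1 and Fcgr1 at or below the median gene level. Of 5 measured erythroid markers 4 were higher with NAC (median 0.55), and that list ran from -0.16 to 0.65 on NAC arrays and from -0.58 to 0.17 on mock arrays. Of 8 mast cell and basophil markers 7 were higher (median 0.39), from -0.09 to 0.52 on NAC arrays and from -0.38 to 0.10 on mock arrays. The part of these lists in the values of the 10 genes was not tested.

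Of 90 other genes of the pathway, taken from lists of receptors, adaptors, kinases, inhibitors and targets, 84 were measured. None passed limma's adjusted p of 0.05 in any NAC contrast or in the interaction, and at an unadjusted p under 0.05 there were 10 of 84 in Mll5-/- cells (5.86% of all genes), 5 in WT cells (5.92%), 10 over both genotypes (7.43%) and 6 for the interaction (4.21%). Over both treatments 51 of 84 were lower in Mll5-/- cells (60.7%), with a median of -0.06, where 49.2% of all genes were lower. For NAC against mock in Mll5-/- cells 60 of 84 were lower (71.4%, median -0.10), where 49.8% of all genes were. In WT cells 44 of 84 were lower (52.4%). The lists were drawn up with earlier results of these arrays known, so these counts are descriptions, for NAC as for genotype.

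The subunit Nfkb2 differed between genotypes by -0.48 with NAC and -0.10 in mock (SE 0.19 each). Over both treatments the difference was -0.29 for Nfkb2 (SE 0.13), -0.14 for Rel (SE 0.14) and -0.11 for Rela (SE 0.14). Among the remaining IkB genes, Nfkbid (IkB-NS), a nuclear IkB protein, lay between 5.18 and 6.01 on the 6 Mll5-/- arrays and between 6.32 and 6.94 on the 6 WT arrays, a difference of -0.81 (SE 0.15). This gap was wider than that of any of the 10 genes and was present with NAC (-0.84) and in mock (-0.77). Nfkbie (IkB-epsilon) differed by -0.69 with NAC and -0.03 in mock (SE 0.24 each).

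By role, 6 of 11 receptors that switch NF-kB on were lower in Mll5-/- cells over both treatments (median -0.14), as were 7 of 11 measured adaptors and ubiquitin ligases (median -0.15) and 8 of 14 other negative regulators (median -0.11). Other cytokine and chemokine targets were mixed, with 9 of 16 lower and a median of 0.00, while 12 of 15 intracellular and surface targets were lower (median -0.12). Among receptors and ligands, Tlr7, a sensor of single-stranded RNA, differed by -1.01 over both treatments (SE 0.28). Its genotypes overlapped in mock, where WT arrays ran from 3.48 to 5.60. Its mean of 3.05 in Mll5-/- NAC cells lay below the median gene level. Ltb, the lymphotoxin beta gene beside Tnf on chromosome 17, differed by -1.03 with NAC and by -0.67 in mock, where the genotypes overlapped (SE 0.30 each). Il1r2, the decoy receptor for interleukin-1, differed by -1.04 over both treatments (SE 0.32). Its genotypes also overlapped in mock, where WT arrays ran from 4.32 to 6.13. Cxcr2, the receptor of Cxcl2, differed by 0.28 with NAC, where the genotypes overlapped, and by 1.02 in mock, where they did not. Its difference between NAC and mock was -0.40 in Mll5-/- cells and 0.34 in WT cells (SE 0.18 each). Ccl9 went the other way from Ccl3 and Ccl4: it lay between 8.24 and 8.70 in Mll5-/- cells and between 7.86 and 8.19 in WT cells, a difference of 0.37 (0.19 with NAC and 0.54 in mock). The list of IKK subunits and the kinases above them had a median of 0.22 over both treatments, 0.05 with NAC and 0.31 in mock, with 5 of 7 measured genes higher in Mll5-/- cells. Ikbkb, a catalytic subunit, went the other way at -0.24 (SE 0.11). These genotype and NAC values for pathway genes are descriptions, since the lists were drawn up with results of these arrays known.

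**Figure D5:**
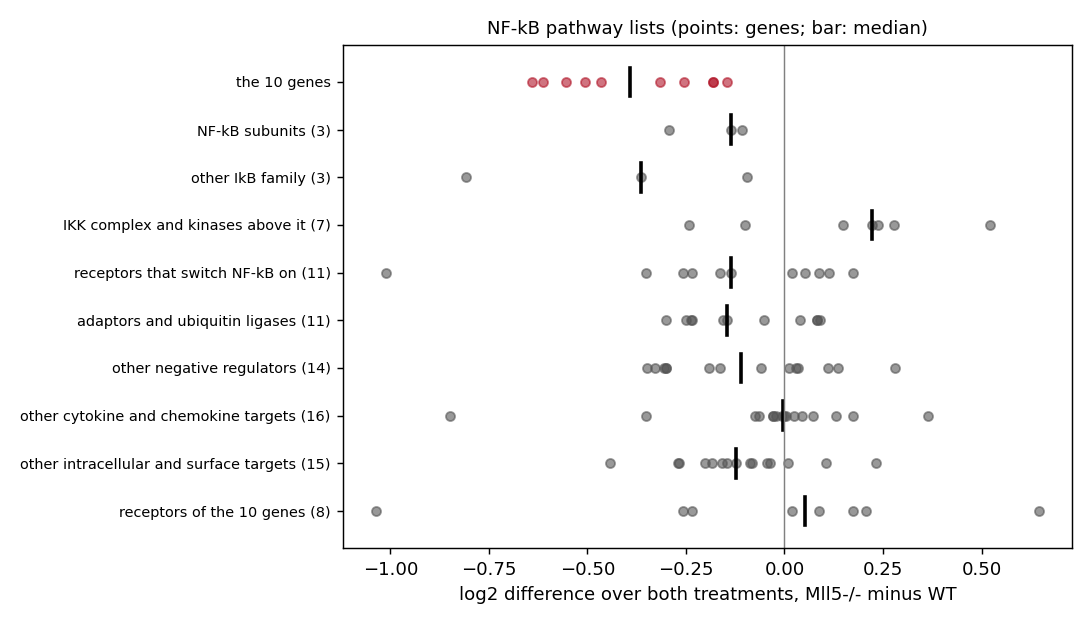
Difference in log2 signal over both treatments, Mll5-/- minus WT, for the 10 genes and for each list of other NF-kB pathway genes; points are genes and bars are list medians, with the number measured beside each name. Genes that belong to 2 lists appear in both. The 10 genes lie between -0.64 and -0.15, and the IKK list has a median of 0.22.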

How the data were processed

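The deposited table holds log2 signals for 41345 probe sets on 12 arrays. Per the submitters' processing notes the authors used Affymetrix Power Tools and RMA, with versions not given in the sources used here. The log base is not stated and was taken as 2 from the range of the values (0.74 to 13.23). RMA shares information between arrays and compresses low signals, which bears on Il1b. Of the probe sets, 25335 were annotated and 23521 had 1 symbol; the brightest per symbol by mean over 12 arrays was kept, giving 22180 genes.

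Differences were fitted with limma 3.58.1 (R 4.3.3), a mean per group, lmFit and eBayes, with Benjamini-Hochberg adjustment over all genes. The fit was tested on simulated data. The 10 genes and all lists were chosen with earlier results of these data known. Pathway genes were named from the 3 per list with the largest genotype difference over both treatments at or above the median gene level; the genes most like the set were ranked by the correlation of deviations from group means. Motifs were searched in RefSeq promoters (GRCm38.p6) with Python 3.11.15. Replicate numbers were not used to pair the arrays in the main fit. Over 18 same-numbered pairs, deviations over all genes correlated at -0.06 to 0.06, which cannot exclude a pairing. Alternatives tried were other scalings, array weights, a median-level filter, a variance trend, a replicate block, mean probe sets, only the groups compared, a looser threshold and arrays left out.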

Additional observations from a re-analysis of the deposited data

How the results depend on the processing

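Under every alternative run, 0 of the 10 genes passed in the 3 NAC contrasts and the interaction. The smallest limma adjusted p over both genotypes was that of Ccl4, at 0.082 with a replicate block and up to 0.373 with other alternatives. The value with the block lies under the looser threshold of 0.1, but that threshold was not combined with the block. The median genotype difference of the set kept its sign under all alternatives. Leaving out 1 array at a time moved it between -0.42 and -0.18 in mock, between -0.55 and -0.43 with NAC, and between -0.44 and -0.30 over both treatments. With the replicate block it was -0.39 over both treatments. The other alternatives gave -0.38 to -0.28 in mock, -0.47 to -0.45 with NAC and -0.47 to -0.38 over both. Without the 2 arrays of lowest weight (Mll5-/- NAC array 1 and WT mock array 1), 7 of 10 genes were lower in mock and 9 of 10 with NAC. Having 3 arrays per group limits the precision, with a median standard error over genes of 0.16 for a difference between 2 groups, and Il1b is near the dim end of the array.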
